A study of Anopheles gambiae with 15 samples.

Results

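The larval mosquito gut is a tube of distinct compartments, and 22 of the 16884 Anopheles gambiae probe sets measured here had high levels along the midgut tube, in both its anterior and its posterior part, and lower levels at either end of it, in the gastric caeca and in the hindgut. These 22 midgut tube probe sets were chosen by their levels: the 3 arrays of each of 4 gut sections were averaged, the 4 means were sorted, and the widest step between neighbouring means had to be at least 1 log2 unit (2-fold) and to part the 2 midgut sections, above it, from caeca and hindgut, below it. That step is called the gap here. Probe sets with a widest gap of that size numbered 1866 in all, so the 22 are a small class among them. The other classes with 2 upper sections held 97 probe sets (caeca and hindgut), 62 (caeca and posterior midgut), 50 (posterior midgut and hindgut) and 8 (caeca and anterior midgut).

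Larvae of the G3 strain were taken at the 4th instar, and no group received a treatment. The gut sections were the gastric caeca, the anterior part of the midgut, its posterior part, and the hindgut together with the Malpighian tubules. Each section was pooled from 1000 dissected guts per array, and each whole-larva array from 200 individuals. Each of these 5 groups has 3 arrays, called biological repeats in the labels, 15 in all. Values are log2 expression values per probe set made with RMA, a method that corrects background, normalizes between arrays and summarises the short probes of a set, and all levels and differences below are on that log2 scale unless a fold is stated. In such pools fewer cells of a type and less RNA per cell cannot be told apart, and a section can carry some tissue of its neighbour.

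In mosquito larvae the midgut is the site of digestion and absorption. The caeca are blind pouches at its front, with secretion, absorption and ion transport among their roles; the anterior midgut holds a strongly alkaline lumen and the posterior midgut a less alkaline one, where much of the digestion and uptake takes place. The hindgut and the Malpighian tubules form urine and recover ions and water. The files and tables used here pair none of the probe set IDs with a gene (0 of 16884 matched the RefSeq table of assembly idAnoGambNW_F1_1), so probe sets appear under their IDs, no function is given to any, and the section labels could not be checked against marker genes.

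Some arrays stood apart. Anterior midgut array 2 had the narrowest range, with an SD over all tested probe sets of 1.40 against 1.59 to 1.85 on the other 14 arrays, and anterior midgut arrays correlated with each other at 0.871 to 0.963 against 0.977 or more in the 3 other sections. The whole-larva arrays, the reference below, also correlated less well, at 0.927 to 0.947. For the control probe sets of actin and Gapdh, the level at the 3′ end minus that at the 5′ end, a sign of how far labelled RNA is biased to transcript ends, was -0.22 to 0.26 in hindgut and 0.63 to 1.12 on all other arrays. Hindgut is 1 of the 2 lower sections of every member, and the part of this difference in its low levels was not tested.

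The widest gap was that of Ag.3L.1076.0_CDS_at, 4.48 or 22.3-fold. Its anterior midgut arrays read 11.55, 10.81 and 12.03 and its posterior midgut arrays 11.35, 11.89 and 11.90, against 5.97, 7.57 and 7.40 in caeca and 5.64, 5.73 and 5.22 in hindgut. All 6 midgut arrays lay far above the 6 others, caeca array 1 lay near the hindgut level, and the whole-larva arrays (9.50, 8.37 and 9.70) fell inside the gap. Ag.3L.2657.0_at came next with a gap of 3.91 (15.1-fold). It read 11.60, 11.58 and 12.33 in anterior and 11.67, 12.22 and 12.13 in posterior midgut, 7.03, 8.47 and 8.27 in caeca, and 7.49, 6.96 and 5.95 in hindgut. Here too the midgut arrays of both parts overlapped each other and no array of another section came within 3.11 of them.

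**Figure D1:**
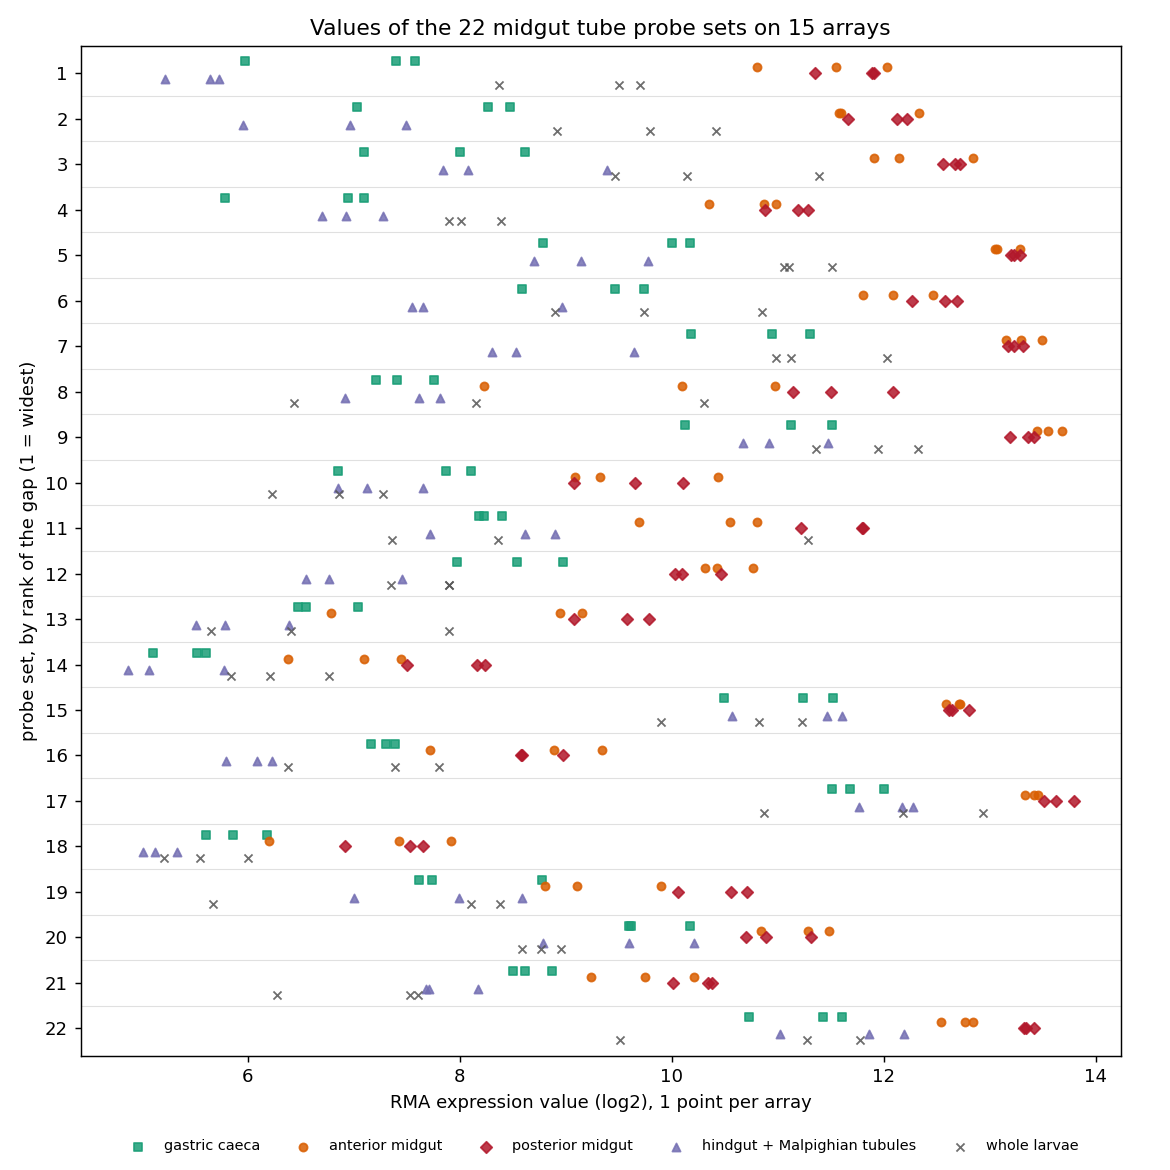
Level of each of the 22 midgut tube probe sets (rows, ranked by gap from 1, the widest, to 22) on each of 15 arrays (log2 RMA value on the horizontal axis, 1 point per array, coloured by group). Midgut points lie to the right of caeca and hindgut points in every row, except 1 anterior midgut point in row 13, and whole-larva points lie inside the gap in the top rows and at or left of the caeca and hindgut points in many lower ones.

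Gaps ran from 1.02 to 4.48 with a median of 1.82 (3.55-fold). They reached 2 for 10 members and 3 for 5. Just inside the threshold stood Ag.UNKN.550.0_CDS_s_at, with a gap of 1.02, and Ag.2L.1338.0_CDS_at, with 1.07. The nearest probe sets of the same shape outside it, Ag.2R.2847.0_CDS_at and Ag.3R.289.0_CDS_at, had gaps of 0.84 each, and 848 probe sets in all had this shape with a smaller gap. The rule used the means of these same arrays, so their separation array by array is a description. It was complete for 21 members, whose 6 midgut arrays all exceeded all 6 caeca and hindgut arrays. The exception was Ag.2L.1949.0_CDS_at, whose anterior midgut array 2 read 6.78, below caeca array 3 at 7.04, while anterior arrays 1 and 3 read 9.15 and 8.94.

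The members were bright in the midgut, but the rule used these levels, so their comparison with all tested probe sets is a description. Other classes were bright in their upper sections too. The median of the highest section mean was 11.59 over the members and 5.43 over all tested probe sets. It was 13.42 for both midgut sections with hindgut, and 11.34 or less in every other class. The members' median level was 10.97 in anterior and 11.59 in posterior midgut. The medians of all tested probe sets there were 5.15 and 5.09. In each part, 19 of 22 members exceeded the 95th percentile of all tested probe sets. In caeca and hindgut their medians were 8.16 and 7.86, and 7 and 4 members exceeded the 95th percentile there. Low in these sections therefore did not mean absent: 22 members in caeca and 20 in hindgut lay above the higher of the background levels, the 95th percentile of 290 probe sets whose IDs start with a number (5.36 in caeca and 5.31 in hindgut). The 2 hindgut means below it were those of Ag.2R.1537.1_a_at, 5.16 ± 0.16 (SD, n = 3), and Ag.2R.1754.0_UTR_at, 5.23 ± 0.47. At the other extreme, Ag.2L.2455.0_CDS_at read 13.46, 13.42 and 13.33 in anterior and 13.79, 13.63 and 13.52 in posterior midgut but also 11.68, 12.01 and 11.51 in caeca and 12.27, 12.18 and 11.76 in hindgut, so its 2.52-fold gap separated a high level from a still higher one.

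Within the midgut the members split by how evenly they were spread along it. The rule bounds this difference by the gap but does not set its sign, and the values are given as a description. Posterior midgut was the higher for 17 and anterior midgut for 5, with a median posterior minus anterior difference of 0.25 (-0.03 over all tested probe sets, of which 45.8% were higher in posterior midgut). Without anterior midgut array 2 it was the higher for 14, and without anterior midgut array 3 for 19. Array 2 was the lowest anterior midgut array for 74.8% of the tested probe sets at least as bright as the dimmest member. Posterior midgut led by at least 2-fold for 4 members, but for only 1 without anterior midgut array 2, the array of narrow range. Ag.3L.1970.0_CDS_at had the largest lead, 3.51-fold, reading 11.14, 11.51 and 12.09 in posterior and 10.10, 8.23 and 10.97 in anterior midgut. Ag.2L.1952.0_CDS_at followed with 2.39-fold, at 11.22, 11.80 and 11.80 against 10.55, 9.69 and 10.81. For both, anterior array 2 was the lowest of the midgut arrays, and no posterior array fell below any anterior one. Without that array the leads were 2.06-fold for Ag.3L.1970.0_CDS_at and 1.90-fold for Ag.2L.1952.0_CDS_at, and without anterior array 3 the lead of Ag.3L.1970.0_CDS_at was 5.33-fold. The 2 largest leads of anterior midgut were small: Ag.3L.584.0_CDS_at was 1.23-fold higher there, at 10.50 ± 0.24 (SD, n = 3) against 10.20 ± 0.23, and Ag.X.663.0_CDS_at 1.18-fold, at 11.20 ± 0.33 against 10.97 ± 0.31, each less than a 2-fold lead and with overlapping arrays.

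Caeca and hindgut, the lower pair, also differed among members. Caeca were the higher for 15 members and hindgut for 7, with a median difference of 0.33, against 0.05 and a share of 56.8% higher in caeca over all tested probe sets. The lead of caeca was at least 2-fold for 6 members and reached 1.98 log2 for Ag.2L.1622.0_CDS_at (chosen for this value after the values were seen), with 10.18, 10.94 and 11.30 in caeca, 8.31, 9.65 and 8.53 in hindgut and 13.16 to 13.50 over the 6 midgut arrays. Those levels form 3 steps with no overlap of arrays between them. The lead of hindgut was never as large, 0.53 at most.

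**Figure D2:**
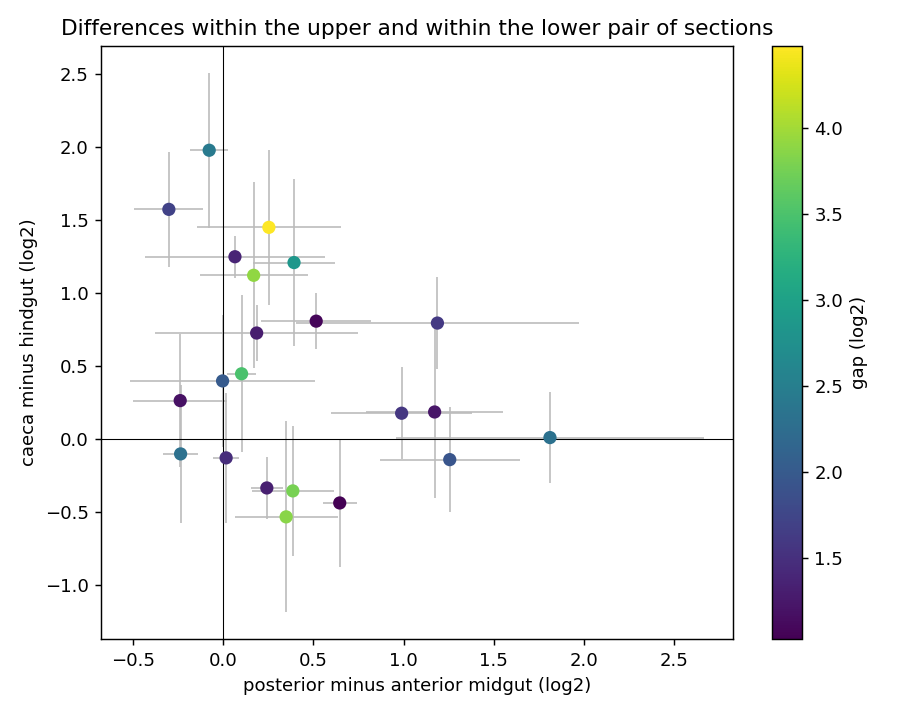
Posterior minus anterior midgut (horizontal axis, log2) against caeca minus hindgut (vertical axis, log2) for the 22 probe sets, coloured by gap, with bars for the standard error of each difference from the SD over 3 arrays. Most points lie right of 0, up to 1.81, and none left of -0.30; on the vertical axis they run from -0.53 to 1.98.

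To ask whether the order of sections holds in arrays that did not choose the members, the rule was applied to 2 replicate numbers and read in the other. With number 1 held out, 15 probe sets were chosen and both held-out midgut arrays exceeded the held-out caeca and hindgut arrays for 15, against 25.1% of all tested probe sets. With number 3 held out this held for 17 of 17 (26.2% of all). With number 2 held out, 29 were chosen, among them all 22 members, and 26 kept the order (19.2% of all), but the held-out gap reached 1 for only 13 and its median was 0.67, against 1.82 in the arrays that chose them. Number 2 holds the anterior midgut array of narrow range. With numbers 1 and 3 held out the median held-out gaps were 2.51 and 1.90. Arrays with the same number may come from the same repeat, so these counts are a description.

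Whole larvae were not used in choosing the members, but the section means they are set against here were, so the places of the whole-larva mean are a description. It lay below both midgut means for 22 of 22 members (44.1% of all tested probe sets). It fell inside the gap for 11, between caeca and hindgut for 5 and below all 4 sections for 6. The members with the highest whole-larva means were Ag.2L.2455.0_CDS_at, 12.00 ± 1.05 (SD, n = 3), and Ag.3L.1560.0_CDS_at, 11.88 ± 0.49, and those with the lowest were Ag.2R.1537.1_a_at, 5.58 ± 0.40, and Ag.2R.1754.0_UTR_at, 6.27 ± 0.46. Whole larvae contain the gut, so in each comparison below the reference also contains RNA of the section.

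The comparison of whole larvae with the mean of the 4 gut sections gives each section the same weight, whereas the rule used differences among the sections. Its section arrays also chose the members and differ in spread, so it may not be fully free of the rule. Called differences were those with an adjusted p under 0.05 in limma over all 16884 probe sets and a change of at least 2-fold. Whole larvae were lower for 6 of 22 members, where 2.88% of all tested probe sets were called lower, and higher for 0, where 4.79% were (0 also at an unadjusted p under 0.05 in limma). The median difference was -0.74 over the members and -0.04 over all tested probe sets. Other classes that share a midgut section had medians of -0.82 (caeca with both midgut sections), -0.66 (anterior midgut alone) and -0.60 (posterior midgut alone). They were -0.62 for caeca with posterior midgut, -0.56 for posterior midgut with hindgut and -0.46 for caeca with anterior midgut. For caeca with posterior midgut and hindgut the median was -0.52. Nearer that of all tested probe sets were both midgut sections with hindgut, -0.09, and caeca with anterior midgut and hindgut, 0.03. The 2 largest falls were those of Ag.2L.1338.0_CDS_at and Ag.2R.2470.0_CDS_at. Whole-larva arrays of Ag.2L.1338.0_CDS_at read 6.27, 7.53 and 7.60, below all 12 gut arrays (8.50, 8.87 and 8.61 in caeca, 9.75, 9.24 and 10.21 in anterior midgut, 10.02, 10.34 and 10.38 in posterior midgut, 7.68, 8.17 and 7.71 in hindgut). It was 3.96-fold lower in whole larvae than the mean of the sections (log2 difference -1.99, SE 0.26, limma adjusted p = 0.00017). Ag.2R.2470.0_CDS_at read 6.23, 6.86 and 7.27 in whole larvae, overlapping hindgut (6.85, 7.66 and 7.12) and caeca (6.85, 8.10 and 7.87) but below anterior midgut (9.08, 9.33 and 10.44) and posterior midgut (9.08, 10.11 and 9.65). Its difference was -1.72 (SE 0.34, 3.30-fold, limma adjusted p = 0.0036).

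Of the other members called lower in whole larvae, Ag.X.663.0_CDS_at was 3.04-fold lower and Ag.UNKN.550.0_CDS_s_at 2.65-fold, while Ag.3L.584.0_CDS_at was 2.48-fold and Ag.2L.1945.0_CDS_at 2.40-fold lower. None of the 6 belongs to the 9 members with the widest gaps. Among the 22, the gap and the difference of whole larvae from the section mean ran together (Spearman's rho 0.73, Pearson's r 0.71, across probe sets that share the same arrays, given as a description). The 5 members with gaps over 3 lay between -0.76 and 0.27 in this difference. Both measures are made from the same section means. A low caeca or hindgut mean can widen the gap and also raises this difference, so their match is not independent of the rule.

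**Figure D3:**
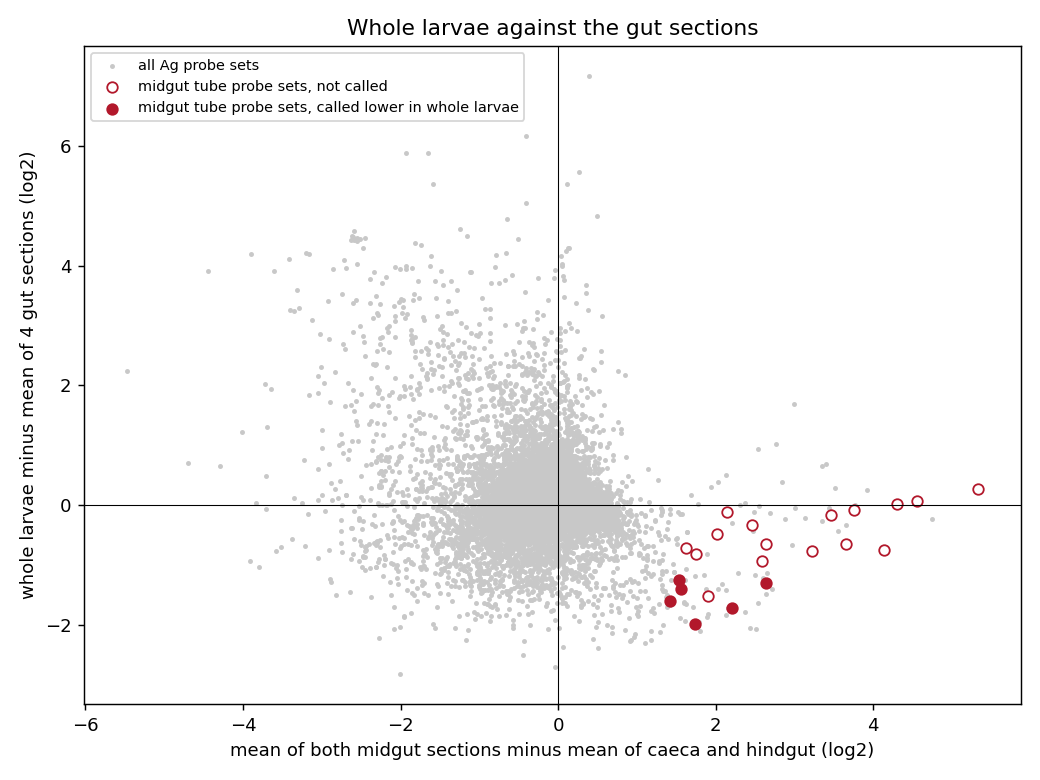
Each point is a probe set, all 16884 in grey and the 22 midgut tube probe sets in red, filled where called lower in whole larvae. The horizontal axis is the midgut mean minus the mean of caeca and hindgut, a difference related to the gap that chose the members. The vertical axis is whole larvae minus the mean of the 4 sections, and both axes are in log2. On the vertical axis 19 of the 22 lie below 0, as do 58.5% of all tested probe sets. The 6 filled ones lie between -1.26 and -1.99.

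Set against whole larvae one section at a time, as the study's design does, the members used section arrays that also chose them, so these counts are given without a reading. In posterior midgut 22 of 22 were called higher (3.72% of all tested probe sets) and 0 lower (5.17%), by 2.72- to 9.74-fold with a median of 5.28-fold. In anterior midgut 17 were called higher (2.35%) and 0 lower (7.95%), by 2.65- to 7.10-fold with a median of 4.05-fold. A fit of the 6 arrays of anterior midgut and whole larvae alone called 11. Over all tested probe sets that fit called 697 in either direction, against 1739 in the main fit. All 3 posterior midgut arrays exceeded all 3 whole-larva arrays for 21 members (16.6% of all), and all 3 anterior midgut arrays did for 17 (17.5%). No member was lower at an unadjusted p under 0.05 in limma in either part.

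Ag.3L.1970.0_CDS_at had the largest rise in posterior midgut, 9.74-fold (log2 difference 3.28, SE 0.81, limma adjusted p = 0.017), over whole-larva arrays that read 6.43, 8.15 and 10.30. Those whole-larva values span 3.87, and without whole-larva array 1 the log2 difference was 2.35 and the limma adjusted p 0.061. Without whole-larva array 3 the log2 difference was 4.29. It was also not called without posterior midgut array 3 (difference 3.03, limma adjusted p = 0.065) or in the fit of the 6 arrays of the 2 groups (limma adjusted p = 0.090). The next largest rise, 8.63-fold, was that of Ag.2L.1338.0_CDS_at (difference 3.11, SE 0.32, limma adjusted p = 2.9e-05). In anterior midgut the largest rises were those of Ag.2R.2470.0_CDS_at, 7.10-fold (difference 2.83, SE 0.43, limma adjusted p = 0.00055), and Ag.3L.584.0_CDS_at, 6.88-fold (difference 2.78, SE 0.28, limma adjusted p = 2e-05). The latter read 10.42, 10.31 and 10.77 there and 7.90, 7.36 and 7.90 in whole larvae.

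The 5 members called in posterior but not in anterior midgut were Ag.3L.1970.0_CDS_at together with Ag.2L.1952.0_CDS_at, both described above, then Ag.2L.1949.0_CDS_at from the exception above, and last Ag.2R.1754.0_UTR_at and Ag.3R.735.0_CDS_at. Their anterior midgut means still exceeded those of whole larvae, by 0.70 to 1.88 (limma adjusted p = 0.051 to 0.20), and whether the 2 sections differ for them was not tested, since the rule used that difference.

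The caeca mean lay below that of whole larvae for 12 members (47.5% of all tested probe sets) and the hindgut mean for 15 (56.8%). Median differences were -0.41 and -0.82, against 0.01 and -0.05 over all tested probe sets. In caeca 5 members were called lower (3.9% of all tested probe sets) and 1 higher (4.24%). The 5 are the members with the widest gaps. A low caeca mean can widen the gap and also lowers this difference, so the match is a description. Among the 5, Ag.2L.2465.0_CDS_at was 5.38-fold lower (log2 difference -2.43, SE 0.52, limma adjusted p = 0.0072). Ag.3L.1076.0_CDS_at was 4.62-fold lower (difference -2.21, SE 0.45, limma adjusted p = 0.0053). Ag.2L.2465.0_CDS_at read 7.09, 8.01 and 8.61 in caeca against 9.46, 10.14 and 11.39 in whole larvae and 11.91 to 12.85 over the 6 midgut arrays. A fit of the 6 caeca and whole-larva arrays alone called 0 lower (5 at an unadjusted p under 0.05 and 2-fold in limma), with adjusted p = 0.059 and 0.061 for these 2. Over all tested probe sets it called 1075 in either direction, against 1375 in the main fit. The 1 called higher was Ag.2L.1338.0_CDS_at, 2.87-fold (limma adjusted p = 0.0074, and 0.061 in the fit of 6 arrays, where 1 different member was called). It was joined by a second member when the replicate number was a block (2 called higher), which pairs caeca and whole-larva arrays, and also without caeca array 1, anterior midgut array 2, hindgut array 1 or hindgut array 3 (2 each). All 3 caeca arrays lay below all 3 whole-larva arrays for 6 members (12.5% of all) and above for 3 (15%).

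In hindgut 9 members were called lower (4.05% of all tested probe sets) and 0 higher (7.29%; 2 at an unadjusted p under 0.05 in limma, both with less than a 2-fold difference). The largest falls were those of Ag.3L.1076.0_CDS_at, 12.6-fold (log2 difference -3.66, SE 0.45, limma adjusted p = 7.4e-05), and Ag.3L.2657.0_at, 7.50-fold (difference -2.91, SE 0.47, limma adjusted p = 0.00071). The 9 include the 5 called lower in caeca. Their number fell to 5 without hindgut array 1, to 4 without hindgut array 3 and to 5 without whole-larva array 3, and the fit of the 6 arrays alone gave 5. Over all tested probe sets the fit of 6 arrays called 1715 in either direction, against 1913 in the main fit. Without hindgut array 3 there was also 1 called higher. All 3 hindgut arrays lay below all 3 whole-larva arrays for 8 members (20.1% of all) and above for 1 (19.2%). By this measure hindgut and whole larvae overlapped for the other 13 members, and also for most of all tested probe sets.

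**Figure D4:**
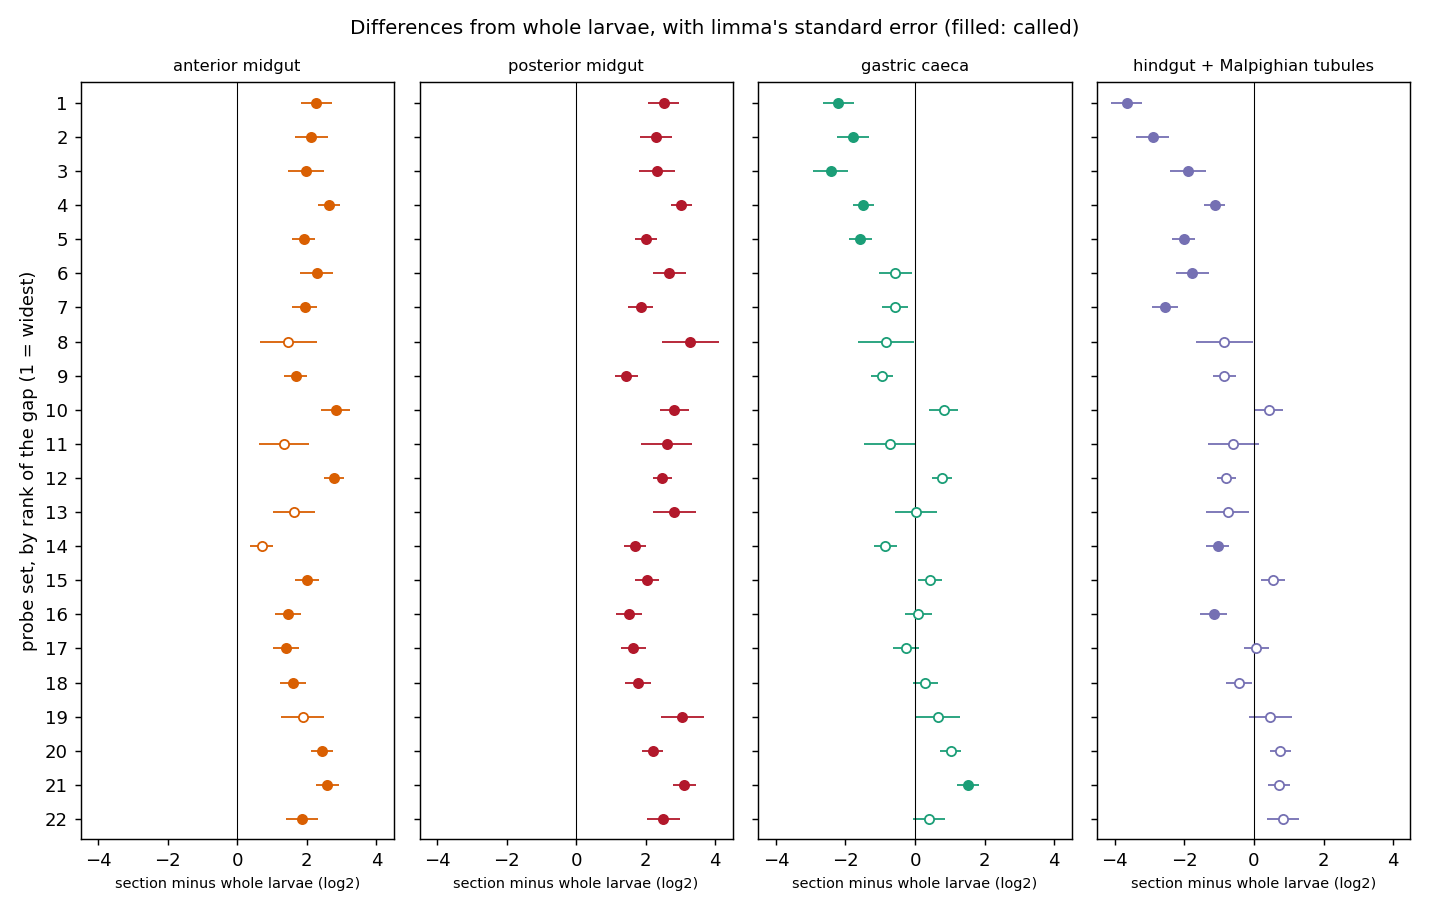
Difference of each section from whole larvae (log2, horizontal axis, bars for limma's standard error) for the 22 probe sets ranked by gap, with filled points for called differences. Both midgut panels lie right of 0 throughout, whereas caeca and hindgut run from clearly left of 0 in the top 5 rows to right of 0 in the bottom 4.

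Single arrays of a group also moved together over the members. The section arrays entered the means that chose the members (5 of the 22 were lost without caeca array 1 and 7 without anterior midgut array 3), so their counts are a description, and the whole-larva arrays alone are free of the rule. Caeca array 1 was the lowest of the 3 caeca arrays for 17 of 22 members and the highest for 0. Among the 4001 tested probe sets at least as bright as the dimmest member it was the lowest for 53.6% and the highest for 22.6%. Its median deviation from the caeca mean was -0.11 there and -0.52 over the members. Whole-larva array 3 was the highest for 19 of 22 members (35.5% of the bright probe sets), with a median deviation of 0.59 (0.02 over the bright ones), and whole-larva array 1 was the lowest for 16 (44.5%), with -0.66 (-0.09). In hindgut, array 2 was the lowest for 0 members (26.8% of the bright probe sets) and the highest for 14 (30.5%). The pattern in anterior midgut, where array 2 was the lowest for 18 members, was close to that of the bright probe sets in general (74.8%).

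These shared deviations were wide in whole larvae. The 3 whole-larva arrays spanned at least 1 log2 unit for 15 of 22 members, against 32.2% of the bright probe sets, and at least 2 for 6. Ag.2L.1952.0_CDS_at had the widest span, with 7.36, 8.36 and 11.29, so that array 3 exceeded the lowest posterior midgut array, 11.22, while array 1 lay below all gut arrays. Ag.X.663.0_CDS_at had the narrowest, with 8.95, 8.59 and 8.76. Over the 231 pairs of members, the deviations of the 15 arrays from their group means correlated at a median r of 0.52, against 0.27 over pairs of the bright probe sets, as a description across arrays that all probe sets share and of which all but the whole-larva arrays entered the rule.

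**Figure D5:**
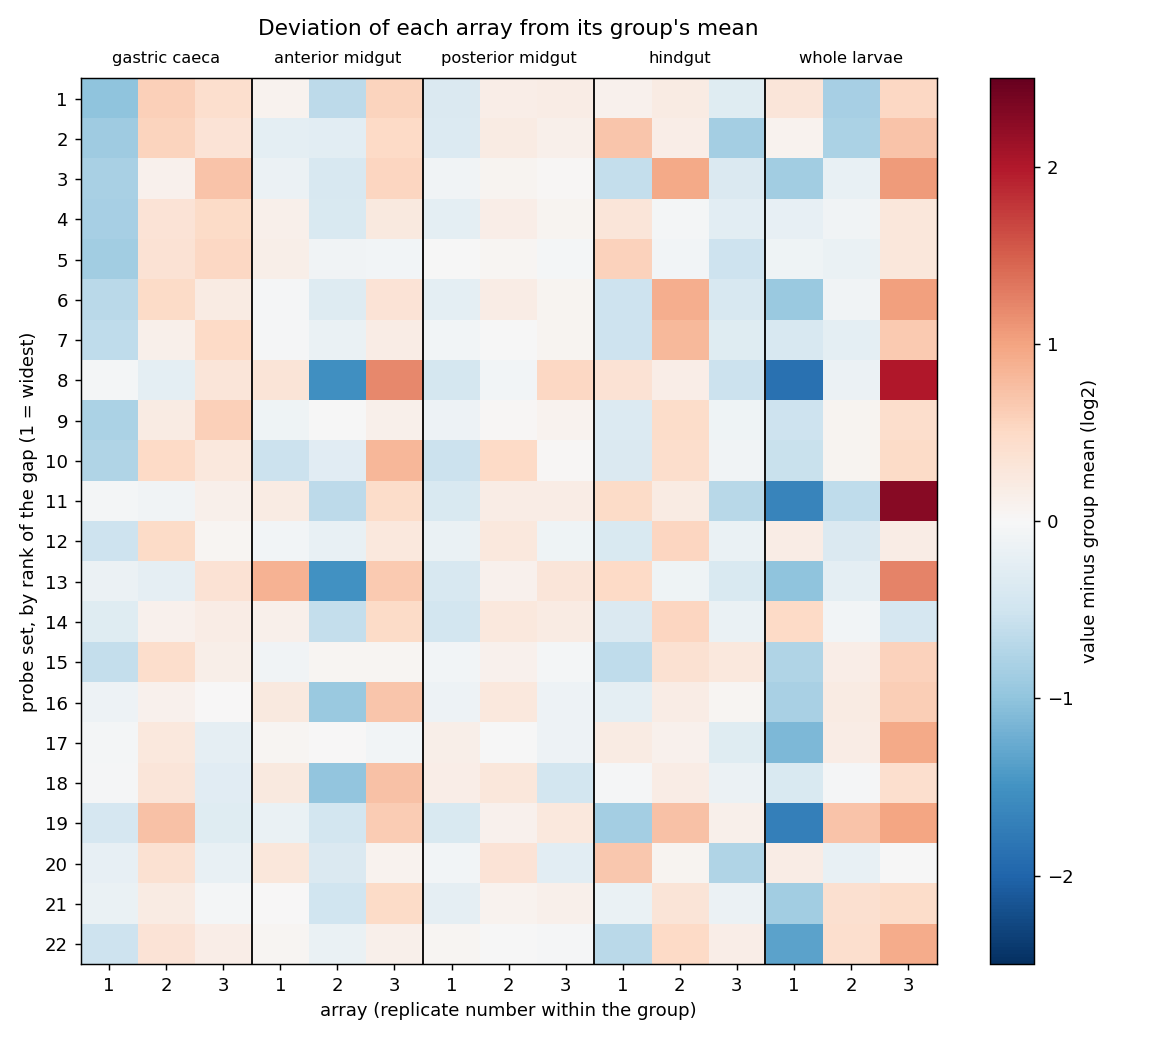
Deviation of each array from the mean of its group (log2, colour) for the 22 probe sets in rows and the 15 arrays in columns. Caeca array 1 and whole-larva array 1 are mostly blue (low), whole-larva array 3 is mostly red (high), and the posterior midgut columns are the palest.

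The 22 members carry 20 distinct ID stems (the chromosome field and the number after it). Ag.2R.115.0_CDS_at and Ag.2R.115.0_CDS_s_at share a stem and correlated at 0.97 over 15 arrays, with gaps of 3.77 and 3.48, although the second was brighter by about 2 or more in every group (means of 13.14 and 10.74 in anterior midgut). Ag.2R.1537.0_CDS_at and Ag.2R.1537.1_a_at correlated at 0.96, with gaps of 1.36 and 1.30. These pairs may read the same transcript and are not separate observations. Ag.2R.1754.0_UTR_at has a partner outside the class, Ag.2R.1754.0_CDS_at, with the same order of sections at lower levels (6.81 in posterior and 5.75 in anterior midgut, 4.81 in caeca and 4.59 in hindgut, r = 0.95). Its widest step, 1.05, fell between posterior and anterior midgut, so the rule placed it elsewhere. All of these were singled out after their values were seen.

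By chromosome field, 8 members carry 2L (36.4%, against 20.3% of all tested IDs), 6 carry 2R (27.3% and 26.3%), 5 carry 3L (22.7% and 14.8%), and 1 each carries 3R (18.8% of all), X (8.31%) and UNKN (11.5%). A CDS tag stands in 19 of the 22 IDs (86.4%, against 83.3% of all) and a UTR tag in 1 (4.55% and 4.68%). Close numbers occur on 2L, where Ag.2L.1945.0_CDS_at is followed by Ag.2L.1949.0_CDS_at and then by Ag.2L.1952.0_CDS_at. The 5 other tested probe sets numbered between them were near background in every section, with no section mean above 4.96. No source used here says whether the numbers follow the order of genes.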

How the data were processed

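The deposited values are log2 levels of probe sets, and the submitters' processing notes name RMA, without its version or settings. Their range, 3.13 to 14.4, is that of a log2 scale. Of 22761 probe sets, the 16884 with IDs starting with Ag were analysed. RMA draws dim signals together, so folds of dim probe sets are understated, and the number of arrays limits precision. Group means were estimated from all 15 arrays together with limma 3.58.1 under R 4.3.3 (lmFit, eBayes; 2.76 prior degrees of freedom), with Benjamini-Hochberg adjustment over all 16884 probe sets in each contrast, and the function was tested on simulated data. Whole larvae against the section mean was added to the study's own section comparisons because it weights the sections equally and the rule used only differences among them. Its section arrays also chose the members, so it may not be fully free of the rule.

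The named probe sets are those with the widest and narrowest gaps, the largest leads within the midgut, the extreme whole-larva means and the 2 largest changes each way per contrast. The members and lists were chosen with earlier results of these data known. No sequences are printed. Labels do not state that same-numbered arrays share a repeat. Deviations of same-numbered arrays correlated above 0.1 in every pair for caeca with whole larvae (0.268 to 0.350) and posterior midgut with whole larvae (0.172 to 0.257), taken as a sign of pairing. They did not for anterior midgut (-0.04 to 0.16) or hindgut (0.04 to 0.14). The main fit did not use this pairing, which entered only the fit with a replicate block. P-values measure the spread between these pools, shared over the 5 groups.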

Additional observations from a re-analysis of the deposited data

How the results depend on the processing

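Counts refer to the 22 members. The rule gave 28 probe sets after another quantile normalization, including all 22, 20 with arrays centred on their median, 19 with medians of 3 arrays, and 15 to 25 without 1 section array (15 without anterior midgut array 3, 18 without caeca array 1). With number 1 or 3 held out, 100% of the chosen probe sets kept the order, against 89.7% with number 2. Leaving out 1 array gave 4 to 9 members lower in whole larvae than the section mean (4 without whole-larva array 1, 9 without array 3) and 0 to 0 higher. It gave 14 to 21 higher in anterior midgut, 19 to 22 in posterior midgut, 4 to 6 lower and 1 to 2 higher in caeca, and 4 to 9 lower and 0 to 1 higher in hindgut. Leads of posterior over anterior midgut of at least 2-fold numbered 1 to 5 without 1 midgut array (1 without anterior midgut array 2), and those of caeca over hindgut 4 to 6, both chosen after seeing the data. Fitting only the 2 groups compared gave 11 higher in anterior midgut (18 at an unadjusted p and 2-fold), 0 lower in caeca and 5 lower in hindgut. Calls over all tested probe sets fell as well, from 1739 to 697 in anterior midgut, from 1375 to 1075 in caeca and from 1913 to 1715 in hindgut. For unadjusted counts and for the t-test below, shares over all tested probe sets were not counted. With the replicate block, 2 were higher in caeca; 18 were higher in anterior and 22 in posterior midgut, 8 were lower in hindgut and 7 lower in whole larvae than the section mean; apart from caeca it moved no count by over 1.5 times. The methods' t-test at its own threshold, unadjusted, gave 14 higher in anterior and 20 in posterior midgut, 2 higher and 5 lower in caeca, and 5 lower in hindgut. After Benjamini-Hochberg adjustment it gave 0 in anterior midgut, posterior midgut and caeca (0 higher, 0 lower) and 1 lower in hindgut. Array weights by limma's default method did not converge and are not used; gene-by-gene weights, chosen after seeing the data, moved no count by over 1.5 times. For the named probe sets in the contrasts that name them, no difference changed sign in 240 refits, and 6 lost the call. The cause of these changes was not tested. Fits of 6 arrays hold fewer residual degrees of freedom and take no spread from the other groups. The main fit shares its spread over the 5 groups. The members' median SD was 0.72 in whole larvae and 0.23 to 0.52 in the sections. Standard errors of the main fit can therefore be too small in comparisons with whole larvae.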

Other observations

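The same rule applied to the probe sets whose IDs do not start with Ag found 1 among the 937 IDs that start with a sequence accession and 0 among the 4506 Pf IDs. It read 10.31, 9.33 and 10.30 in anterior midgut, 9.42, 10.31 and 9.42 in posterior midgut, 8.30, 9.12 and 8.43 in caeca and 8.99, 8.29 and 7.38 in hindgut, a gap of 1.10. Its whole-larva arrays read 7.29, 6.67 and 7.20, below all 12 gut arrays. The tables used here give it no gene name.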
